A study of Mus musculus with 24 samples.

Results

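The 10 genes of insulin signalling and glucose entry described here were followed in the mouse heart after an experimental stroke of the brain. They encode the growth factor IGF-1 (Igf1), the insulin and IGF-1 receptors (Insr, Igf1r), the adaptors IRS-1 and IRS-2 (Irs1, Irs2), a regulatory subunit of phosphoinositide 3-kinase (Pik3r1), the kinases Akt1 and Akt2, and the glucose transporters GLUT1 (Slc2a1) and GLUT4 (Slc2a4). Genes were chosen by symbol in the platform annotation, and all 10 were in the table, 1 identifier each, among 24011 named genes. Total RNA came from hearts of wild-type C57BL/6J mice 8 weeks old. Mice had their middle cerebral artery occluded (MCAO) or underwent a sham operation, and hearts were taken at 24 h or 72 h. Each of the 4 groups had 6 arrays, 24 in all. The comparison asks how stroke in the brain changes cardiac gene expression at each time. The labels name no further allele or agent, and say of feeding only that access to food and water was free.

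Insulin and IGF-1 bind receptor tyrosine kinases that phosphorylate the IRS adaptors. These recruit phosphoinositide 3-kinase, whose lipid product brings Akt to the membrane, and Akt in turn promotes glycogen synthesis, restrains FoxO transcription factors and releases GLUT4 from intracellular vesicles. In the heart GLUT4 is the insulin-responsive glucose transporter and GLUT1 carries much of the uptake that does not need insulin. Irs2 is known as a FoxO target that is switched on when insulin signalling is low.

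All values are deposited log2 levels from Affymetrix arrays, so 1 unit is a doubling. The level of one gene does not measure its amount against another, and levels of different genes are compared below only roughly. The mean of every one of the 10 genes lay above 3.96, the 95th percentile of 1370 olfactory and vomeronasal receptor genes, which serve smell and were used as a stand-in for background. Correlations across genes of an array with the mean of its group-mates were 0.985 to 0.997 in 22 arrays, and 0.976 and 0.971 in replicates 5 and 6 of MCAO 24 h. Whether the 6 arrays of a group came from 6 mice is not said in the labels. The p-values therefore cover only the spread between these samples, which may be technical. Their number limits the precision. Cardiomyocyte markers (Myh6, Tnnt2, Actn2 and 7 others) averaged 12.50 to 12.81 per array, whereas hepatocyte and skeletal muscle markers averaged 3.54 to 4.00, which fits the labelled tissue.

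At 24 h after MCAO, 3 of the 10 genes were higher than in sham hearts and none was lower: Irs2 (3.04-fold), Pik3r1 (1.47-fold) and Insr (1.32-fold). Of all genes tested, 21.8% passed at this time, 11.1% upward and 10.8% downward. At 72 h only Pik3r1 of the 10 passed, 1.46-fold higher, where 2.35% of all genes passed, 1.17% upward and 1.19% downward. Every adjusted p here and below is from limma's moderated test with Benjamini-Hochberg adjustment over the 24011 genes, called under 0.05. The median size of the log2 change over the 10 genes, whatever its sign, was 0.31 at 24 h and 0.36 at 72 h. It was 0.13 and 0.062 over all genes, and 0.21 and 0.12 over genes above the median level. The 10 genes also varied more within groups than all genes did. Their median SD was 0.335 against 0.218 in MCAO 24 h, and 0.197 against 0.105 in MCAO 72 h. Before adjustment, 5 of the 10 had an unadjusted p under 0.05 at 24 h and 6 at 72 h. So did 8320 and 2627 of all 24011 genes, and 5035 and 2348 of the 12005 genes above the median level. In bulk tissue such as this, fewer cells of a type and less RNA per cell cannot be told apart.

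**Figure D1:**
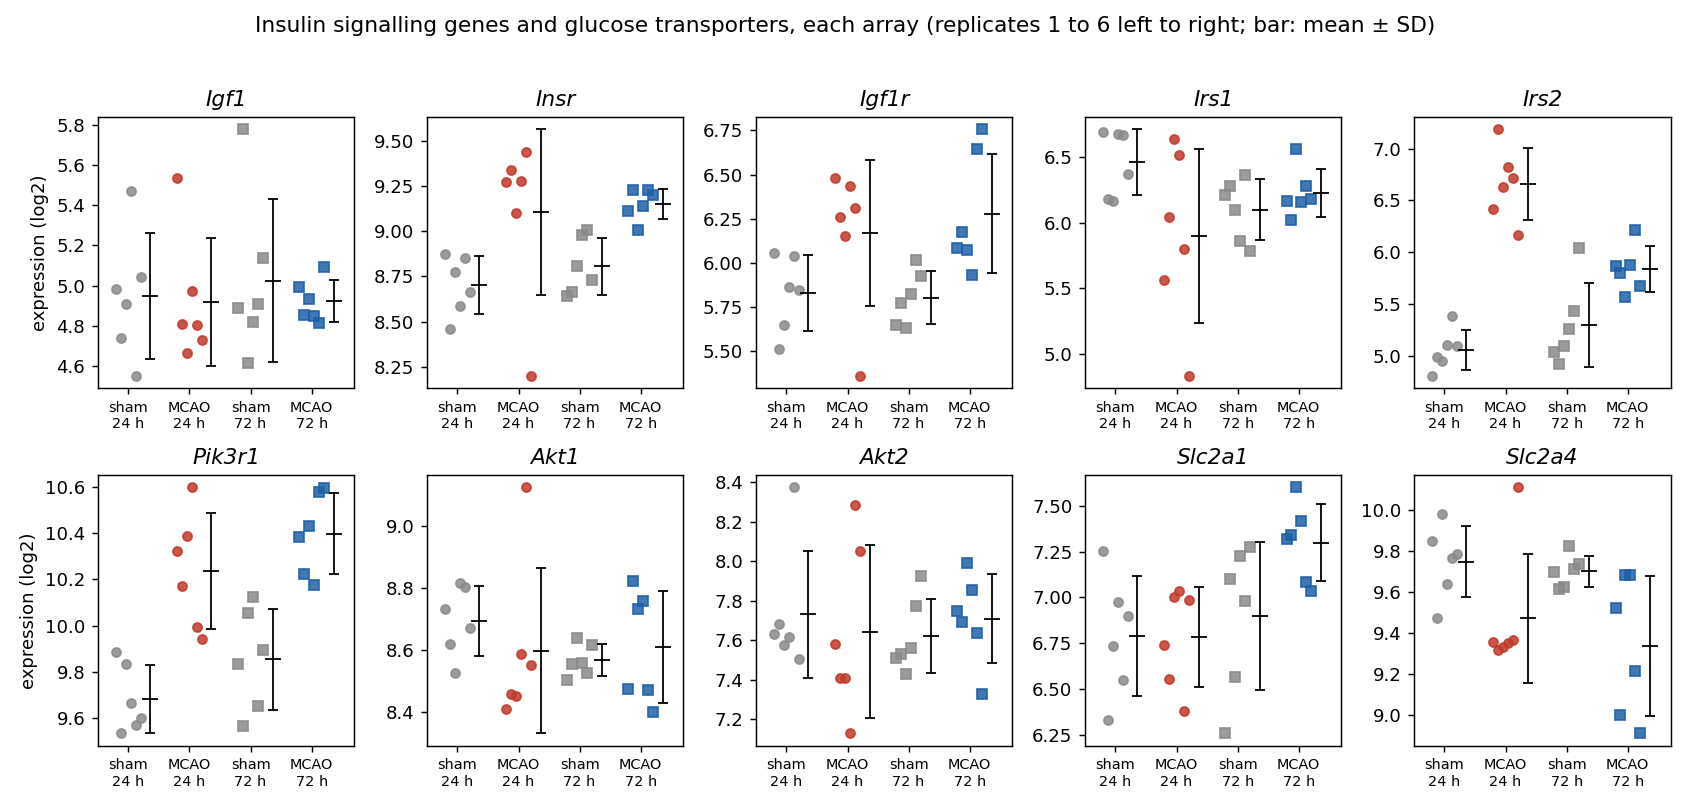
Expression (log2, vertical axis, its own range per gene) of the 10 genes in each of the 24 arrays, by group on the horizontal axis; points are arrays, bars the mean ± SD of 6. Irs2 in MCAO 24 h lies between 6.16 and 7.19, above all sham 24 h arrays (4.81 to 5.38), and Pik3r1 lies above its sham arrays at both times.

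Igf1 (Entrez Gene 16000), the ligand, is made mainly by the liver and also locally in tissues. Its level ran from 4.55 to 5.47 (median 4.95) in sham 24 h and from 4.67 to 5.54 (median 4.81) in MCAO 24 h. At 72 h the sham arrays ran from 4.62 to 5.78 (median 4.90) and the MCAO arrays from 4.81 to 5.09 (median 4.90). The groups overlapped almost wholly at both times. The log2 difference was -0.03 at 24 h (SE 0.17, 95% interval -0.37 to 0.31, adjusted p = 0.921) and -0.10 at 72 h (SE 0.17, interval -0.45 to 0.24, adjusted p = 1).

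Insr (Entrez Gene 16337) encodes the insulin receptor. Sham 24 h arrays lay between 8.46 and 8.87 (median 8.72), and MCAO 24 h arrays between 8.20 and 9.44 (median 9.28). In 5 of the 6 MCAO arrays Insr was above every sham array, while replicate 6, at 8.20, was below every one. Insr rose by 0.40 on the log2 scale (SE 0.14, adjusted p = 0.0438), or 1.32-fold. This call was lost in 15 of the 24 fits that left out a single array, with an adjusted p of up to 0.0992, and it gained strength without MCAO 24 h replicate 6 (log2 change 0.59, adjusted p = 4.84e-05). It was also lost when only the 12 arrays of that time were fitted (adjusted p = 0.174) and with a covariate taken from the olfactory and vomeronasal receptor genes, their first principal component over the arrays (log2 difference 0.54, adjusted p = 0.296). At 72 h the sham arrays spanned 8.64 to 9.01 (median 8.77) and the MCAO arrays 9.01 to 9.23 (median 9.17), 5 of 6 above all sham arrays. The difference of 0.35 (SE 0.14, interval 0.05 to 0.64) did not pass at this time (adjusted p = 0.296). It passed in 4 of 34 alternative fits, with an adjusted p as low as 0.00878.

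Igf1r (Entrez Gene 16001), the IGF-1 receptor, resembles the insulin receptor and shares its adaptors. Its arrays ran from 5.51 to 6.06 (median 5.86) in sham 24 h and from 5.36 to 6.48 (median 6.29) in MCAO 24 h. Again replicate 6 was the lowest of all 12 arrays and the other 5 lay above every sham array. The log2 difference was 0.34 (SE 0.16, interval 0.01 to 0.67, adjusted p = 0.137). At 72 h the sham range was 5.63 to 6.01 (median 5.80) and the MCAO range 5.93 to 6.75 (median 6.13), with replicates 5 and 6 highest at 6.64 and 6.75. The difference of 0.47 (SE 0.16, interval 0.14 to 0.81) did not pass (adjusted p = 0.154). Without MCAO 24 h replicate 6, Igf1r passed at 24 h (log2 change 0.50, adjusted p = 0.00801) and at 72 h (adjusted p = 0.0343). Insr passed at 72 h in that fit too (adjusted p = 0.0120), since the spread is shared by all groups.

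The adaptors IRS-1 and IRS-2 carry the signal of both receptors, and their genes had the lowest and the highest log2 difference of the 10 at 24 h. Irs2 (Entrez Gene 384783) lay between 4.81 and 5.38 (median 5.04) in sham 24 h and between 6.16 and 7.19 (median 6.67) in MCAO 24 h. No MCAO array came near the sham range: the lowest, replicate 6, was above the highest sham array. Irs2 rose by 1.60 (SE 0.17, adjusted p = 1.51e-06), or 3.04-fold, in 6 of 6 arrays. The share of all genes whose groups did not overlap at 24 h was 5.53%. The call held in all 34 alternative fits, with log2 changes of 1.497 to 1.71 and adjusted p between 2.65e-07 and 0.0140.

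At 72 h Irs2 ranged from 4.92 to 6.04 (median 5.18) in sham and from 5.57 to 6.22 (median 5.84) in MCAO hearts. A single sham array, replicate 6 at 6.04, reached into the MCAO range. The difference of 0.54 (SE 0.17, interval 0.19 to 0.88) missed the threshold (adjusted p = 0.101), and passed when that sham array was left out (log2 change 0.69, adjusted p = 0.0109). The order of the group means was sham 24 h (5.06), sham 72 h (5.30), MCAO 72 h (5.83) and MCAO 24 h (6.66). Neighbouring groups in this order shared part of their range, the MCAO groups between 6.16 and 6.22. The MCAO effect on Irs2 was smaller at 72 h than at 24 h by a test of the difference itself (-1.06 on the log2 scale, SE 0.24, interval -1.55 to -0.58, adjusted p = 0.0245). Irs2 was the 1 gene of the 10 that passed this test, which 1.79% of all genes passed, 0.991% upward and 0.800% downward. In 32 of 33 alternatives it passed as well, the exception being the fit with the receptor genes' principal component as a covariate (-1.12, adjusted p = 0.246), where 0.0208% of all genes passed.

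Irs1 (Entrez Gene 16367) did not follow Irs2. Its arrays spanned 6.17 to 6.69 (median 6.52) in sham 24 h and 4.84 to 6.64 (median 5.92) in MCAO 24 h, where the SD was 0.66 against 0.25. In 4 of 6 MCAO arrays Irs1 was below every sham array, and replicate 6 was lowest at 4.84. The difference of -0.56 (SE 0.21, interval -0.99 to -0.13) missed the threshold (adjusted p = 0.0562). It passed in 5 of 34 alternatives, at 0.0486 with a trended and robust prior and 0.0417 with dim genes left out, and with an adjusted p of 0.0143 without MCAO 24 h replicate 3, 0.0232 without MCAO 24 h replicate 4 and 0.0496 without sham 24 h replicate 3. Without MCAO 24 h replicate 6 the difference was -0.35 (adjusted p = 0.128). At 72 h the groups overlapped, at 5.78 to 6.36 (median 6.16) in sham and 6.02 to 6.56 (median 6.18) in MCAO hearts, a difference of 0.13 (SE 0.21, interval -0.30 to 0.56, adjusted p = 1). The test of the difference between times gave 0.69 for Irs1 (SE 0.29, adjusted p = 0.218).

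Pik3r1 (Entrez Gene 18708) encodes p85alpha and its shorter forms, which bind phosphorylated IRS proteins and hold the catalytic subunit. It ran from 9.53 to 9.89 (median 9.63) in sham 24 h and from 9.94 to 10.60 (median 10.25) in MCAO 24 h. At 72 h it ran from 9.56 to 10.12 (median 9.86) in sham and from 10.18 to 10.59 (median 10.41) in MCAO hearts. The groups did not overlap at either time, which held for 3.54% of all genes at 72 h. Pik3r1 rose by 0.55 at 24 h (SE 0.11, adjusted p = 0.00132) and by 0.54 at 72 h (SE 0.11, adjusted p = 0.00704). The effects at the 2 times differed by -0.01 (SE 0.16, interval -0.34 to 0.32, adjusted p = 0.982). Both calls held in all 34 alternatives, with an adjusted p of at most 0.0441 at 24 h and 0.0253 at 72 h.

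**Figure D2:**
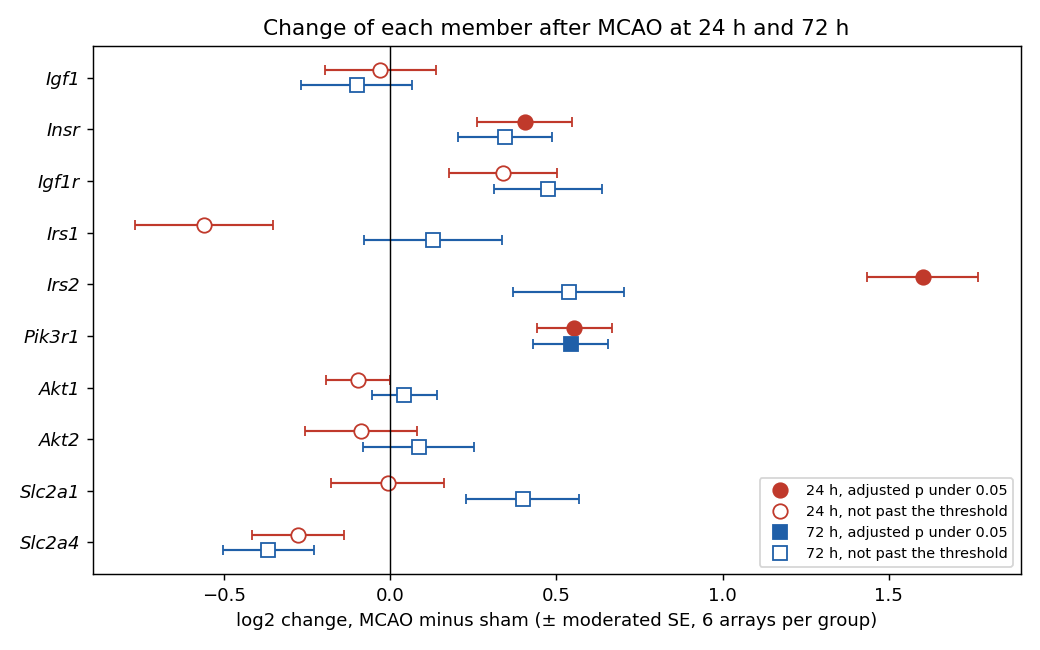
Log2 change (MCAO minus sham, horizontal axis) of each of the 10 genes at 24 h (circles) and 72 h (squares) with its moderated SE; filled symbols passed at an adjusted p under 0.05. Pik3r1 sits at 0.55 and 0.54, whereas Irs2 goes from 1.60 to 0.54.

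Promoters are shown for the members that passed at either time and had a window, and Insr, which passed at 24 h, had none. They are those of Irs2, which rose at 24 h, and of Pik3r1, which rose at both times. Each is the 250 bases upstream of a RefSeq transcript start (GRCm38.p6), in the direction of transcription. Capitals mark the E-box, CACGTG. The Irs2 window is chr8:11008930-11009179, and the Pik3r1 windows are chr13:101768218-101768467 and chr13:101692631-101692880, all on the minus strand.
Irs2: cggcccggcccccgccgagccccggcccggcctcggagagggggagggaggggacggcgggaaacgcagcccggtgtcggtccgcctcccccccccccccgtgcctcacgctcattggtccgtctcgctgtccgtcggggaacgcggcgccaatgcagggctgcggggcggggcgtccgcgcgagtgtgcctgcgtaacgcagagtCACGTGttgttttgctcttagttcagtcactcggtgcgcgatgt
Pik3r1 window 1: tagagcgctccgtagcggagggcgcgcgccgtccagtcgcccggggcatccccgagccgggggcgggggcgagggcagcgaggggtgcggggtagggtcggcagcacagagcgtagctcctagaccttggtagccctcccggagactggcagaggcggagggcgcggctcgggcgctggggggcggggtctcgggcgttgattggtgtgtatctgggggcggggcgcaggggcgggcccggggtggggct
Pik3r1 window 2: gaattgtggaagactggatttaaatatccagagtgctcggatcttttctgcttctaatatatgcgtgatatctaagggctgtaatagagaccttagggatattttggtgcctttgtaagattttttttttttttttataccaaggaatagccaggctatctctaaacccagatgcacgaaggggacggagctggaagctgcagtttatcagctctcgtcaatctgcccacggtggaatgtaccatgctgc

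RefSeq windows of 250 bases before to 50 after the start were given for 8 of the 10 genes, 13 windows in all, and not for Insr and Slc2a4. Searched on both strands were 3 motifs: the FoxO core site GTAAACA, the E-box CACGTG and the glucocorticoid receptor element. No matches overlapped. The Irs2 window held an E-box that starts at -44 from the transcript start, and the Irs1 window held one at -115. Akt1 had a FoxO core site at -161 on the minus strand. The glucocorticoid receptor element was not in these letters of any of the 13 windows, and the 2 Pik3r1 windows held none of the 3 motifs. Of 32851 promoter windows of this length, 7.15% held the E-box, 3.65% the FoxO core site and 0.475% the glucocorticoid receptor element. These are matches of letters, and binding was not measured.

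Akt1 (Entrez Gene 11651) and Akt2 (Entrez Gene 11652) encode the kinases at the centre of the pathway, Akt2 being the form most tied to insulin-driven glucose uptake. Akt1 spanned 8.53 to 8.82 (median 8.70) in sham 24 h and 8.41 to 9.13 (median 8.51) in MCAO 24 h, with replicate 5 alone above the sham range and 3 arrays below it. The difference was -0.10 (SE 0.10, interval -0.30 to 0.10, adjusted p = 0.511). At 72 h it spanned 8.50 to 8.64 (median 8.56) in sham and 8.40 to 8.82 (median 8.60) in MCAO hearts, 3 arrays above and 3 below the sham range, a difference of 0.04 (SE 0.10, interval -0.16 to 0.24, adjusted p = 1). Akt2 overlapped at both times: 7.51 to 8.38 (median 7.62) in sham and 7.13 to 8.29 (median 7.49) in MCAO at 24 h, and 7.43 to 7.93 (median 7.55) and 7.33 to 7.99 (median 7.72) at 72 h. Its differences were -0.09 (SE 0.17, interval -0.43 to 0.26, adjusted p = 0.748) and 0.09 (SE 0.17, interval -0.26 to 0.43, adjusted p = 1). With 6 arrays per group, true differences anywhere inside these intervals remain possible.

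Slc2a4 (Entrez Gene 20528) encodes GLUT4. It ran from 9.47 to 9.98 (median 9.78) in sham 24 h. In MCAO 24 h 5 arrays lay close together at 9.32 to 9.37, below every sham array, and replicate 6 lay above every one at 10.11. With all arrays the difference was -0.28 (SE 0.14, interval -0.56 to 0.01, adjusted p = 0.155), and without replicate 6 it passed at -0.41 (adjusted p = 0.0144). At 72 h the sham arrays ran from 9.62 to 9.82 (median 9.71) and the MCAO arrays from 8.91 to 9.68 (median 9.37), 4 of 6 below all sham arrays. The difference of -0.37 (SE 0.14, interval -0.65 to -0.08) did not pass (adjusted p = 0.222), but it did with array weights (-0.38, adjusted p = 0.0290).

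Slc2a1 (Entrez Gene 20525) encodes GLUT1, which is widespread and sits at the cell surface without insulin. In sham 24 h it ran from 6.33 to 7.25 (median 6.82) and in MCAO 24 h from 6.38 to 7.04 (median 6.86), wholly inside the sham range. The difference was -0.01 (SE 0.17, interval -0.36 to 0.34, adjusted p = 0.983). At 72 h it ran from 6.26 to 7.28 (median 7.04) in sham and from 7.03 to 7.60 (median 7.33) in MCAO hearts, 4 of 6 above every sham array, a difference of 0.40 (SE 0.17, interval 0.05 to 0.75, adjusted p = 0.329). The difference of its effects between times was 0.41 (SE 0.24, adjusted p = 0.392).

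Between the sham groups none of the 10 genes passed, and none had an unadjusted p under 0.05. Over all genes 5 passed, 0.0208%, of which 0.00833% were higher and 0.0125% lower, and 885 had an unadjusted p under 0.05. The sham differences (72 h minus 24 h) ran from -0.36 for Irs1 (adjusted p = 1) to 0.24 for Irs2 (adjusted p = 1.00).

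Arrays of one group did not vary alike. The median SD of the 10 genes was 0.335 in MCAO 24 h, 0.205 in sham 24 h, 0.204 in sham 72 h and 0.197 in MCAO 72 h. Over all genes the medians were 0.218, 0.130, 0.114 and 0.105 in the same order. MCAO 24 h replicate 6 was the lowest of its group for Insr, Igf1r, Irs1, Irs2 and Pik3r1 and the highest for Slc2a4. Without it 5 of the 10 genes passed at 24 h, where 24.4% of all genes did. With replicate 5 also left out 6 passed (24.4% of all genes), adding Akt1 (-0.22, adjusted p = 0.0448) to Irs2, Insr, Igf1r, Pik3r1 and Slc2a4, and 3 passed at 72 h (4.59% of all genes). Cardiomyocyte markers averaged 12.50 and 12.51 in replicates 5 and 6, the lowest values of their group. The part of this in the result was not tested.

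**Figure D3:**
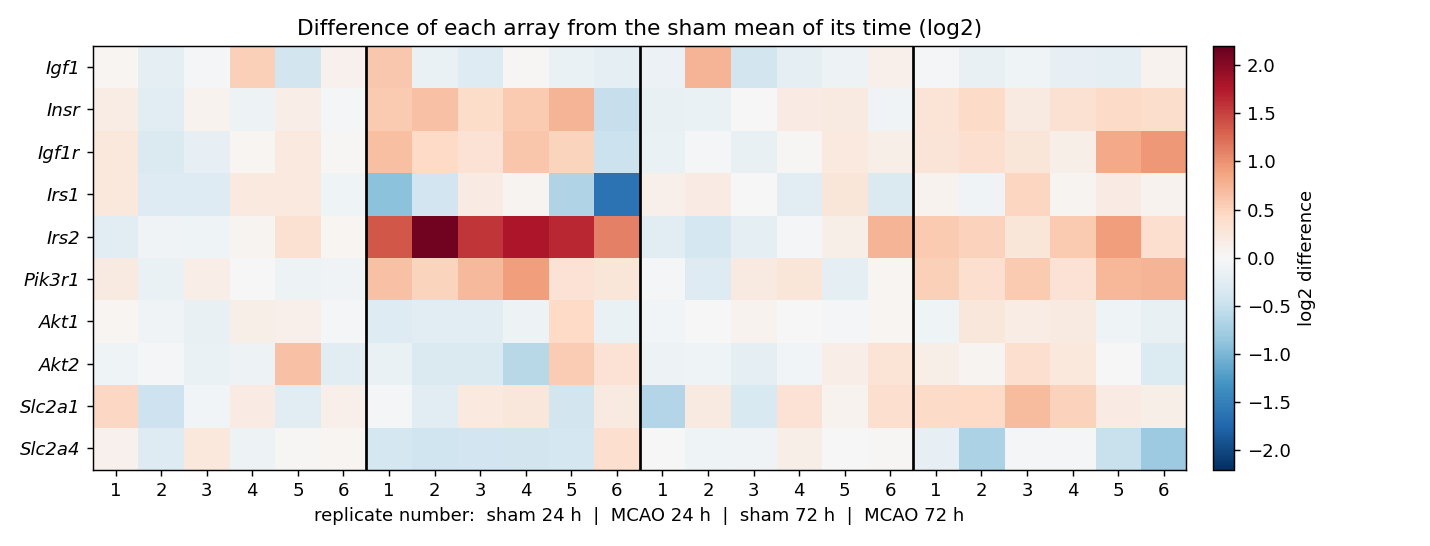
Difference of each of the 24 arrays (horizontal axis, replicates 1 to 6 of each group) from the sham mean of its own time (log2, colour) for the 10 genes (vertical axis). In MCAO 24 h replicate 6 Insr, Igf1r and Slc2a4 take the opposite colour to replicates 1 to 5.

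Genes whose pattern was most like that of Irs2, by the root mean square difference of centred log2 values over the 24 arrays, were Ccrl2 (0.306), Sik1 (0.320) and Pnpla2 (0.351). Ccrl2 encodes an atypical chemoattractant receptor, Sik1 a salt-inducible kinase and Pnpla2 the lipase ATGL. Their log2 differences at 24 h and 72 h were 1.47 and 0.59 for Ccrl2, 1.04 and 0.76 for Sik1, and 1.14 and 0.81 for Pnpla2. Nearest to Pik3r1 were Carmil1 (0.145), Hipk1 (0.149) and Tfdp2 (0.150), with differences of 0.56 and 0.62, 0.52 and 0.47, and 0.69 and 0.71. Carmil1 averaged 4.14 in sham 24 h and 4.32 in sham 72 h, near the stand-in for background (3.96). All points of such a measure share the same arrays, so it is a description.

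Lists of other pathway genes held 110 genes, of which 104 were measured. At 24 h 12 were higher and 17 lower, 29 in all, and at 72 h 3 were higher and 3 lower. The median log2 change over the 104 was -0.01 at 24 h and 0.03 at 72 h. Of all genes 21.8% and 2.35% passed. The 24 h count depended on the fit: it was 14 with only the 12 arrays of that time, 18 with array weights and 2 (Grb14 and Gsk3a) with the receptor genes' covariate. The share of all genes that passed moved with it, to 9.14%, 13.6% and 1.33%. At 72 h the receptor genes' covariate left 2.80% of all genes, against 2.35% without it. Most 24 h calls over all genes were lost with this covariate, so a lost call is not particular to a gene. How far it follows the MCAO 24 h group was not tested. Of the pathway genes named below, Grb14 alone passed at 24 h with that covariate. The 72 h count was 22 with array weights (7.93% of all genes), 13 without MCAO 24 h replicates 5 and 6 (4.59%), 13 with only the arrays of that time (5.87%) and 3 with a trended and robust prior (2.14%). Leaving out 1 array gave it 10 (MCAO 24 h replicate 6, 3.42% of all genes) or 3 (MCAO 72 h replicate 2 or 5, or sham 72 h replicate 5, 1.64% to 1.83%). Cblb, Grb14, Inpp5k and Inppl1 passed in the same direction at both times. None of the 104 passed the test of the difference between times, which 1.79% of all genes passed. An unadjusted p under 0.05 in that test was found for 20 of the 104 and for 4233 of all 24011 genes.

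Receptor adaptors and inhibitors held the most calls, with 3 of 22 higher and 7 lower at 24 h. Of all genes, 11.1% were higher and 10.8% lower at that time. Cblb, a ubiquitin ligase that dampens receptor signalling, lay between 7.01 and 7.38 in sham and between 8.04 and 8.55 in MCAO hearts at 24 h, and rose by 1.03 (SE 0.11, adjusted p = 2.33e-06). At 72 h its ranges were 7.08 to 7.58 and 7.77 to 8.43, and it rose by 0.70 (SE 0.11, adjusted p = 0.000616). Grb14 encodes an adaptor that binds the insulin receptor and inhibits its kinase. It lay between 9.15 and 9.44 in sham 24 h and between 8.40 and 8.79 in MCAO 24 h, and fell by 0.71 (SE 0.08, adjusted p = 2.33e-06). At 72 h its ranges were 9.01 to 9.32 and 8.48 to 8.87, and it fell by 0.53 (SE 0.08, adjusted p = 0.000231). Neither gene's groups overlapped at either time, which held for 5.53% of all genes at 24 h and 3.54% at 72 h. Ptpn11, the phosphatase SHP2, rose by 0.60 (adjusted p = 9.67e-06) and Ptprf, the receptor phosphatase LAR, by 0.55 (adjusted p = 6.47e-05) at 24 h. Among the lower genes were Shc1 (-0.76), Grb2 (-0.57) and Cav3 (-0.52), named after their values were seen. With the receptor covariate Shc1 was at -0.25, Grb2 at -0.079 and Cav3 turned to 0.18, and the Cav3 call was also lost in 7 of 24 fits without 1 array. At 72 h Appl1, an adaptor that binds Akt, fell by 0.25 (SE 0.07, adjusted p = 0.0466), a call lost in 15 of 24 fits without 1 array.

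In the kinase module 2 of 17 genes were higher and 2 lower at 24 h, near the 21.8% of all genes. Inpp5k and Inppl1 (SHIP2) both encode phosphatases that remove the lipid signal, and they moved in opposite directions. Inpp5k rose by 0.54 at 24 h (SE 0.08, adjusted p = 9.61e-05) and by 0.44 at 72 h (SE 0.08, adjusted p = 0.00370). Inppl1 fell by 0.43 (SE 0.09, adjusted p = 0.00244) and by 0.38 (SE 0.09, adjusted p = 0.0282). At 24 h Mapkap1, a subunit of mTORC2, fell by 0.43 (adjusted p = 0.0409) and Ppp2ca, a catalytic subunit of PP2A, rose by 0.23 (adjusted p = 0.0429). Pdpk1, the kinase that phosphorylates Akt, rose by 0.28 at 72 h (SE 0.07, adjusted p = 0.0318). Single arrays ended the call of Mapkap1 in 4, of Ppp2ca and of 72 h Inppl1 in 8 and of Pdpk1 in 9 of 24 fits. The direction of Mapkap1 turned with the receptor covariate (0.16, adjusted p = 0.778), and its call was lost with only the 12 arrays of that time (adjusted p = 0.171). Ppp2ca was at 0.040 with that covariate (adjusted p = 0.922) and also lost its call with array weights (0.18, adjusted p = 0.246).

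Among 14 ligands, receptors and binding proteins, 2 were lower at 24 h, as were 10.8% of all genes. Ghr, the growth hormone receptor, fell by 0.49 (SE 0.09, adjusted p = 0.000750) and Igfbp5, an IGF-binding protein, by 0.68 (SE 0.21, adjusted p = 0.0199). The Igfbp5 call was lost without MCAO 24 h replicates 5 and 6 (-0.42, adjusted p = 0.0844), with array weights (-0.53, adjusted p = 0.0753), with only the 12 arrays of that time (adjusted p = 0.0909) and with the receptor covariate (-0.34, adjusted p = 0.699). No gene of this list passed at 72 h. Akt substrates had 3 of 20 higher and 1 lower at 24 h and none past the threshold at 72 h. These counts were near the shares of all genes, 21.8% and 2.35%. Pfkfb2, the cardiac enzyme that makes fructose 2,6-bisphosphate, fell by 0.93 (SE 0.21, adjusted p = 0.00294), and was at -0.36 with the receptor covariate (adjusted p = 0.664). The muscle glycogen synthase gene Gys1 rose by 0.32 (adjusted p = 0.0296), Ralgapb by 0.25 (adjusted p = 0.0330) and Pde3b by 0.31 (adjusted p = 0.0449). Single arrays ended these last 3 calls in 5, 6 and 15 of 24 fits, and all 3 were lost with array weights and with only the 12 arrays of that time. Gys1 was at 0.15 without MCAO 24 h replicates 5 and 6 (adjusted p = 0.207) and turned to -0.18 with the receptor covariate (adjusted p = 0.566). Pde3b averaged 4.06 in sham 24 h and 4.37 in MCAO 24 h, near the stand-in for background (3.96).

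In the list of other glucose transporters and GLUT4 traffic, 4 of 31 genes were higher and 5 lower at 24 h, and none passed at 72 h. Over all genes 11.1% were higher and 10.8% lower at 24 h, and 2.35% passed at 72 h. Txnip, which restrains glucose uptake through GLUT1 and GLUT4, rose by 0.86 (SE 0.21, adjusted p = 0.00650). Aspscr1 (TUG), which holds GLUT4 vesicles inside the cell, rose by 0.55 (SE 0.12, adjusted p = 0.00203), and Stxbp3 (Munc18c), which binds syntaxin 4, by 0.62 (SE 0.14, adjusted p = 0.00274). Mef2a, a factor that binds the GLUT4 promoter, fell by 0.53 (SE 0.12, adjusted p = 0.00284). With the receptor covariate Mef2a turned to 0.088 (adjusted p = 0.818), and Txnip (0.28, adjusted p = 0.753), Aspscr1 (0.32, adjusted p = 0.453) and Stxbp3 (0.24, adjusted p = 0.657) did not pass. The Txnip call was also lost with array weights (0.66, adjusted p = 0.134).

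**Figure D4:**
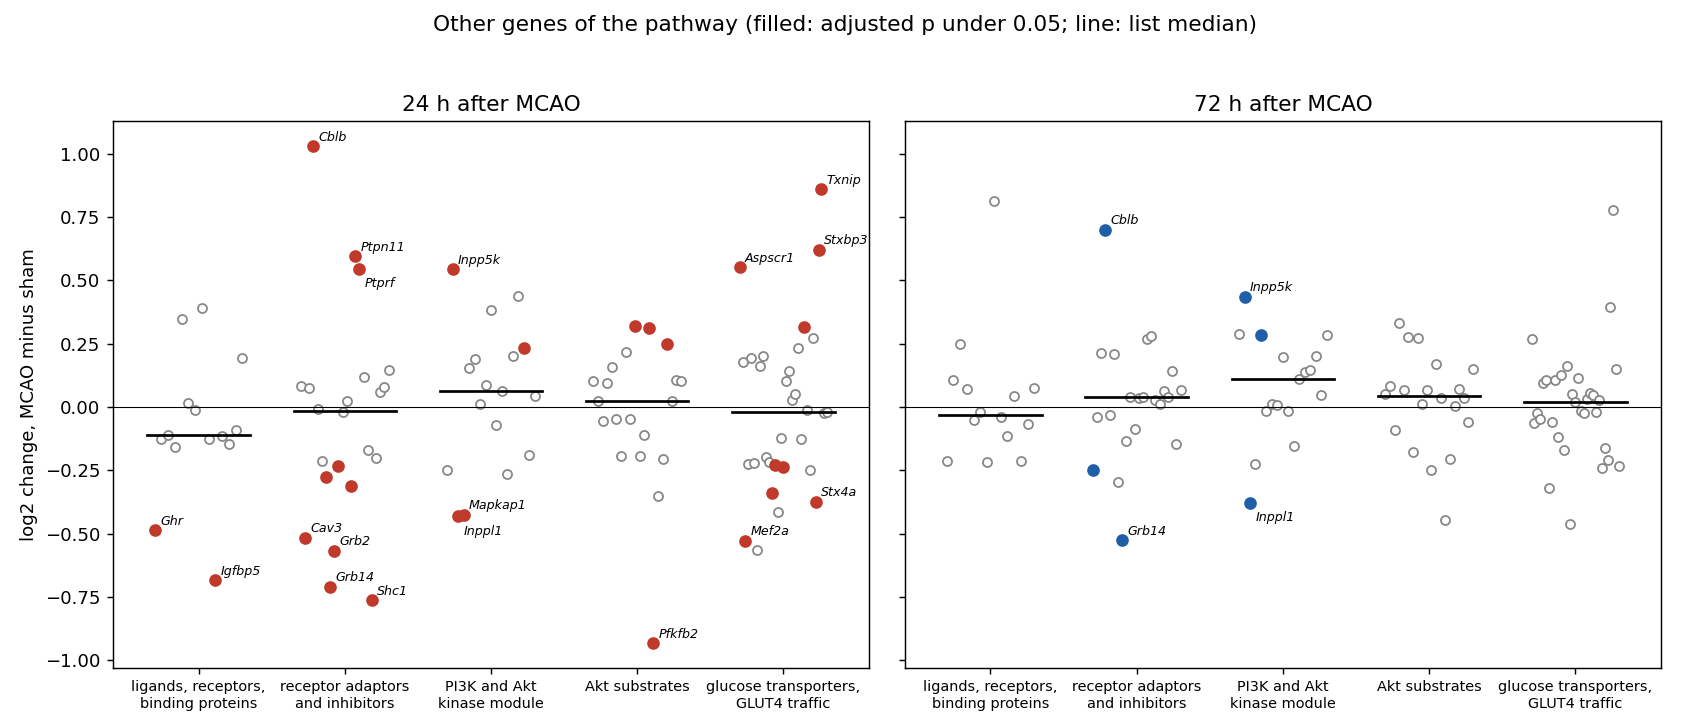
Log2 change (MCAO minus sham, vertical axis) of each of the 104 other pathway genes by list (horizontal axis) at 24 h and 72 h; filled points passed at an adjusted p under 0.05 and bars are list medians. Cblb is the highest point at 24 h (1.03) and Pfkfb2 the lowest (-0.93).

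Markers of other cell types were called in part at 24 h, when 21.8% of all genes passed. Fibroblast markers averaged 8.11 to 8.50 per array in sham and 7.50 to 8.08 in MCAO hearts, with 3 of 8 lower (Lum, Col1a1, Col1a2) and none higher. Smooth muscle markers averaged 6.998 to 7.51 and 6.74 to 6.88, with 3 of 5 lower. Endothelial markers overlapped (8.74 to 8.94 and 8.67 to 8.88), with 2 of 8 higher and 1 lower, and macrophage markers did too (6.83 to 7.17 and 6.48 to 7.16), with 1 of 9 higher. Cardiomyocyte markers averaged 12.64 to 12.79 and 12.50 to 12.69, with 2 of 10 lower, and atrial markers ranged widely (5.17 to 6.46 and 5.64 to 8.9999) with 0 of 6 called. Adipocyte markers averaged 3.51 to 3.92 and 3.73 to 4.03, near the stand-in for background, with 1 of 5 higher. Erythroid markers averaged 3.93 to 4.83 and 4.10 to 4.65, with 1 of 4 higher and 1 lower. Skeletal muscle markers averaged 3.72 to 3.92 and 3.54 to 3.80, with 3 of 6 lower, and hepatocyte markers 3.64 to 3.81 and 3.77 to 4.00, with 2 of 5 higher, both near the stand-in for background. At 72 h, when 2.35% of all genes passed, 1 fibroblast marker (Gsn) and 1 endothelial marker were higher, and 1 smooth muscle and 1 endothelial marker lower. Their part in the changes of Irs2, Pik3r1, Insr and the pathway genes was not tested.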

How the data were processed

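Total RNA from hearts, Trizol-extracted and labelled as biotinylated cRNA per the labels' protocols, was measured on 24 Affymetrix arrays. The authors' deposited table holds log2 values (the base inferred from the range, 2.78 to 13.5). Once sorted, 23 columns were identical and the other was within 0.00191, as quantile normalization leaves them. How probes were summarized, and with which build, was not given in the sources used here, and the submitters' processing notes name HOMER without role or version. Groups followed titles, source names and treatment labels; the free-text description of 72 h samples says 24 h. Of 24973 identifiers, 958 had no name here and 24015 had 1 symbol; where 4 symbols had several identifiers, the brightest stood for the gene, leaving 24011 genes.

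Genes were tested with limma 3.58.1 in R 4.3.3 (lmFit, eBayes, 4 group means, all 24 arrays), with Benjamini-Hochberg adjustment at 0.05. The fit was tested on simulated data of 24011 genes, 100 of them changed by 0.5 and 100 by 1 (log2): it recovered 72% and 100% at 24 h and 71% and 100% at 72 h, and 6.52% and 5% of its calls were false. The simulated noise was independent between arrays, with the same spread per gene in every group. In the data the median SD was 0.218 in MCAO 24 h and 0.105 to 0.130 in the other groups, and 21.8% of genes passed at 24 h. The fit takes a common spread per gene from all groups, so this reaches the 72 h test too. With only the arrays of that time 5.87% of genes passed at 72 h, against 2.35% with all arrays. The simulated shares therefore cannot be carried over to the calls at either time. Members, lists, markers and alternatives were chosen with earlier results of these data known. Named were all members, up to 4 genes per pathway list and time with the smallest p among those past the threshold, and the 3 genes most like the member with the smallest p at each time, leaving out predicted symbols. Alternatives were other priors, normalizations and filters, array weights, a replicate block, fits without arrays, a principal component of receptor genes as a covariate, and only the groups compared. Protein sequences were not analysed here.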

Additional observations from a re-analysis of the deposited data

Results flagged for a closer look

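In groups of 6 arrays, a highest or lowest array was marked where its gap to the nearest other exceeded Dixon's critical share of the group's range at the 95% level. This marked 16 of 144 tests over 36 genes, and chance alone marks about 1 in 20 groups. In MCAO 24 h, replicate 6 stood apart for Insr (8.20), Igf1r (5.36) and Slc2a4 (10.11), replicate 5 for Akt1 (9.13), Mapkap1 (6.43) and Hipk1 (8.53), and replicate 1 for Igf1 (5.54) and Pnpla2 (11.37). In sham 24 h, replicate 5 stood apart for Akt2 (8.38) and Sik1 (7.61), replicate 3 for Ccrl2 (6.73) and replicate 1 for Carmil1 (4.34). In sham 72 h, replicate 2 stood apart for Ghr (7.90) and Pfkfb2 (8.23), replicate 3 for Mef2a (10.62) and replicate 1 for Txnip (11.47).

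The MCAO effect differed between 72 h and 24 h for Irs2 (-1.06 on the log2 scale) and for Ccrl2 (-0.88), by limma's test of the difference. Both missed the threshold with the receptor covariate (-1.12 and -0.53).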

How the results depend on the processing

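Of the 10 genes, 3 passed at 24 h and 1 at 72 h, and none of these called values changed sign in an alternative. With the receptor covariate, the named pathway genes called at 24 h that changed sign were Mapkap1 (0.1588), Gys1 (-0.1775), Mef2a (0.08797) and Cav3 (0.1802). Leaving out 1 array gave 2 to 5 genes at 24 h and 1 to 3 at 72 h, and 20 to 32 and 3 to 10 pathway genes, where all arrays gave 29 and 6. The share of all genes that passed in those fits ran from 17.6% to 24.4% at 24 h and from 1.64% to 3.42% at 72 h. With all arrays it was 21.8% and 2.35%. Without MCAO 24 h replicates 5 and 6, 6 and 3 of the 10 genes and, at 72 h, 13 pathway genes passed (24.4% and 4.59% of all genes). Array weights gave 5 of the 10 at 72 h, and 18 and 22 pathway genes (13.6% and 7.93% of all genes). The receptor covariate left 2 pathway genes at 24 h and 0 of the 10 genes in the difference between times (1.33% and 0.0208% of all genes). Fits of only the groups compared gave 2 of the 10 at 72 h, and 14 and 13 pathway genes (9.14% and 5.87% of all genes). The trended and robust prior gave 3 pathway genes at 72 h (2.14% of all genes). The cause was not tested.

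Uncalled log2 differences that changed sign were, at 24 h, Igf1 (0.026 with array weights, 0.047 without the MCAO 24 h arrays 5 and 6, 0.10 with the covariate) and Slc2a1 (0.042 without those arrays, 0.092 with the covariate). In the difference between times they were Igf1r (-0.031 and -0.11) and Slc2a4 (0.045 and 0.016), in the same order, and between sham groups Igf1r (0.0064 with array weights). Over fits without 1 array, the ranges at 24 h were -0.22 to 0.041 for Akt2, -0.099 to 0.085 for Slc2a1 and -0.15 to 0.075 for Igf1, and -0.18 to 0.050 for Igf1 at 72 h. For the difference between times they were -0.24 to 0.0077 for Insr, -0.026 to 0.20 for Igf1r, -0.069 to 0.062 for Pik3r1, -0.16 to 0.040 for Slc2a4 and -0.18 to 0.080 for Igf1. For the sham groups they were -0.088 to 0.021 for Igf1r, -0.17 to 0.019 for Akt2 and -0.077 to 0.18 for Igf1.

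With the replicate number as a block, 3 of the 10 genes passed at 24 h, 1 at 72 h, 1 in the difference and 0 between sham groups, with 28 and 4 pathway genes. Of all genes, 20.6% passed at 24 h in that fit, 2.16% at 72 h, 1.23% in the difference and 0.00416% between sham groups. Deviations of arrays with the same number correlated at -0.0533 to 0.0068 at 24 h and -0.0695 to 0.1405 at 72 h, so the numbers were not taken to pair arrays. No detection limit was given, so low log2 values have no stated distance from background.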
